A study of Mus musculus with 18 samples.

Results

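The transcripts described here encode the intracellular receptors that steroid hormones act on in muscle, the enzyme pair that activates glucocorticoids inside cells, and the co-chaperones that hold the receptors ready for hormone. The list names 7 genes: Nr3c1, Nr3c2, Esr1, Hsd11b1, H6pd, Fkbp4 and Ptges3. They were found by their symbols among the 43430 genes of the count table, and all 7 passed the filter on low counts that left 13596 genes for testing. RNA came from quadriceps myofibres of C57BL/6 mice (C57BL/6J in the study's methods), male or female, that received vehicle, weekly prednisone or daily prednisone, with 3 libraries for each sex and treatment and 18 in all. The study's methods state that treatment began at 10 weeks of age and lasted 4 weeks, at 1 mg/kg prednisone per injection. The vehicle, DMSO in saline, was injected intraperitoneally in the control mice and on the remaining days of the weekly regimen, and the last weekly prednisone injection preceded harvest by 2 days. Muscle was digested with collagenase, and the fraction held back by a strainer was used, so that other cells of the muscle can be carried along with the fibres.

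HSP90 and its helpers fold the product of Nr3c1, the glucocorticoid receptor, into the shape that can bind hormone. An exchange of one immunophilin for another then couples the bound receptor to the motor that carries it along microtubules. Prednisone itself has little activity at the receptor. It becomes prednisolone when the reductase encoded by Hsd11b1 acts on it in the lumen of the endoplasmic reticulum, with NADPH that H6pd, hexose-6-phosphate dehydrogenase, makes there. In mice the same reaction renews corticosterone, the main glucocorticoid of rodents. The enzyme is abundant in liver and adipose tissue and is also found in muscle, where the receptor is known for its part in the wasting that prolonged glucocorticoid exposure brings.

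The promoters of Fkbp4 and Nr3c2 held the core of the heat shock element, the sequence bound by the factor that drives chaperone genes. Hsd11b1 and H6pd form the enzyme pair described above. For these reasons the promoters of these 4 genes are shown. Each is the run of 250 bases before the RefSeq start of the gene on GRCm38.p6, written in the direction of transcription. For Nr3c2, Hsd11b1 and H6pd this run lies inside the counted gene, so any start further upstream was not searched. The heat shock core, GAANNTTC, is in capitals. Fkbp4 lies on the minus strand at chr6:128438657-128438906, Nr3c2 on the plus strand at chr8:76902080-76902329, Hsd11b1 on the minus strand at chr1:193242361-193242610, and H6pd on the minus strand at chr4:150003237-150003486.
Fkbp4: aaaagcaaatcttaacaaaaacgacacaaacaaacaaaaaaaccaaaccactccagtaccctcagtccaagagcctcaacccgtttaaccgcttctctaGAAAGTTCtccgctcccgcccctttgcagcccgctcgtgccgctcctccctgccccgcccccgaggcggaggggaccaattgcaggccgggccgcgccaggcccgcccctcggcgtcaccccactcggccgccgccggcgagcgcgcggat
Nr3c2: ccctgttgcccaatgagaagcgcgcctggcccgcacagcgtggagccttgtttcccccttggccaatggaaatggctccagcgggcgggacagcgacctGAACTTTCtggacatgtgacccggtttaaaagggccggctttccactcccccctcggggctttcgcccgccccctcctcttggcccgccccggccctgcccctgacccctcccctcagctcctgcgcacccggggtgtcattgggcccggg
Hsd11b1: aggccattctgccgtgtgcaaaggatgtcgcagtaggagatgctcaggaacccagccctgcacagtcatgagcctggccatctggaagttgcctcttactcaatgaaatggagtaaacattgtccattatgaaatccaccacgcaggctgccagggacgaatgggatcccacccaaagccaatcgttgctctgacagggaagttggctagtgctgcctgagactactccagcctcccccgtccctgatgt
H6pd: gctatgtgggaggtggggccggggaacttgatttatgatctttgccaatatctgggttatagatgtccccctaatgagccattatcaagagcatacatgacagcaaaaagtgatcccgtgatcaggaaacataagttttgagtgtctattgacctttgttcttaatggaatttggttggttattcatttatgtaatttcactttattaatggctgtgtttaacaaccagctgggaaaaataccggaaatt

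RefSeq promoters were matched for 6 of the 7 genes, all but Nr3c1. In windows of 300 bases, from 250 before to 50 after each start, both strands were searched for ACANNNTGT, the core of the glucocorticoid response element, for GAANNTTC, for the E-box CACGTG and for the full palindromic oestrogen response element. The core GAANNTTC was the only motif matched, at position -151 from the start in Fkbp4 and in Nr3c2. Among 32851 RefSeq promoters of the same length, 7.86% hold GAANNTTC, 6.85% ACANNNTGT, 7.15% CACGTG and 0.0213% the oestrogen response element. GAANNTTC does not overlap the other motifs in these windows. These matches describe the letters of the windows and no binding was measured.

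Total counts were between 10506661 and 14686654 per library, and mitochondrially encoded genes took 11.7% to 36.4% of them. This share was 11.7% to 18.3% in female daily libraries, wholly below the 21.1% to 26.3% of female vehicle, and it was highest, at 36.4%, in female weekly replicate 2. In males the daily and vehicle shares overlapped. The 8 myofibre markers, among them Acta1 and Myh4, summed to between 102516 and 187774 CPM, and none was at 0 in any library. CPM are read counts scaled to a common library total, which was adjusted in each library by its TMM factor. Adipocyte markers were called with daily prednisone averaged over both sexes (7 of 10, where 7.48% of all tested genes rose) and less in single comparisons, with 0 of 10 in daily males, 1 of 10 in daily females and 0 of 10 with weekly prednisone in either sex. The unadjusted counts with weekly prednisone were 6 of 10 in males and 10 of 10 in females. The 10 of them, among them Adipoq, Plin1 and Cidec, summed to 510 to 802 CPM in male vehicle, 872 to 1487 in male weekly and 934 to 1853 in male daily libraries. In females the sums were 852 to 1035 CPM with vehicle, 1058 to 6546 with weekly and 1500 to 3887 with daily prednisone. Lep, the leptin gene, was at 0 in 1 library, of the female vehicle group, and no other adipocyte marker was at 0 anywhere. Of 5 blood markers, 4 fell with daily prednisone averaged over both sexes, where 7.47% of all tested genes fell, and the remaining marker had a log2 difference below 0 that did not pass. The blood sums were 68.0 to 88.6 CPM in female daily against 96.5 to 175 in female vehicle libraries, and 104 to 122 in male daily against 116 to 170 in male vehicle libraries. Schwann cell sums ran from 70.8 to 270.4 CPM over all libraries. Cd68 was the 1 macrophage marker of 8 called, in daily males and in the average. The part of blood, Schwann cell and macrophage RNA in the results below was not tested. In such bulk RNA, fewer cells of a type cannot be told apart from less RNA per cell.

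The 7 genes covered a wide range of abundance in vehicle muscle. Per kilobase of exon, the co-chaperone Fkbp4 was highest, at 21.6 ± 3.42 CPM per kilobase (SD, n = 6 vehicle libraries of both sexes), followed by Ptges3 at 14.4 ± 1.74 and H6pd at 4.61 ± 0.647. Nr3c1 stood at 2.63 ± 0.341, Hsd11b1 at 1.004 ± 0.330, Esr1 at 0.567 ± 0.104 and Nr3c2 at 0.296 ± 0.0651 CPM per kilobase. The ranges of Hsd11b1 and Esr1 overlapped, while all other neighbours in this order were separate across the 6 libraries. Within each library the glucocorticoid receptor transcript exceeded that of the mineralocorticoid receptor, Nr3c2, by a ratio of 6.75 to 10.9 per kilobase, with a median of 9.30 over 18 libraries. Exon length here is the deposited length for each gene, merged over its transcripts, so a gene with long rarely used exons is placed too low on this scale. The order depends on this length. In mean vehicle CPM without it, Nr3c1 (61.7) stood above Ptges3 (57.4) and H6pd (47.8), and Esr1 (15.3) above Hsd11b1 (8.20).

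**Figure D1:**
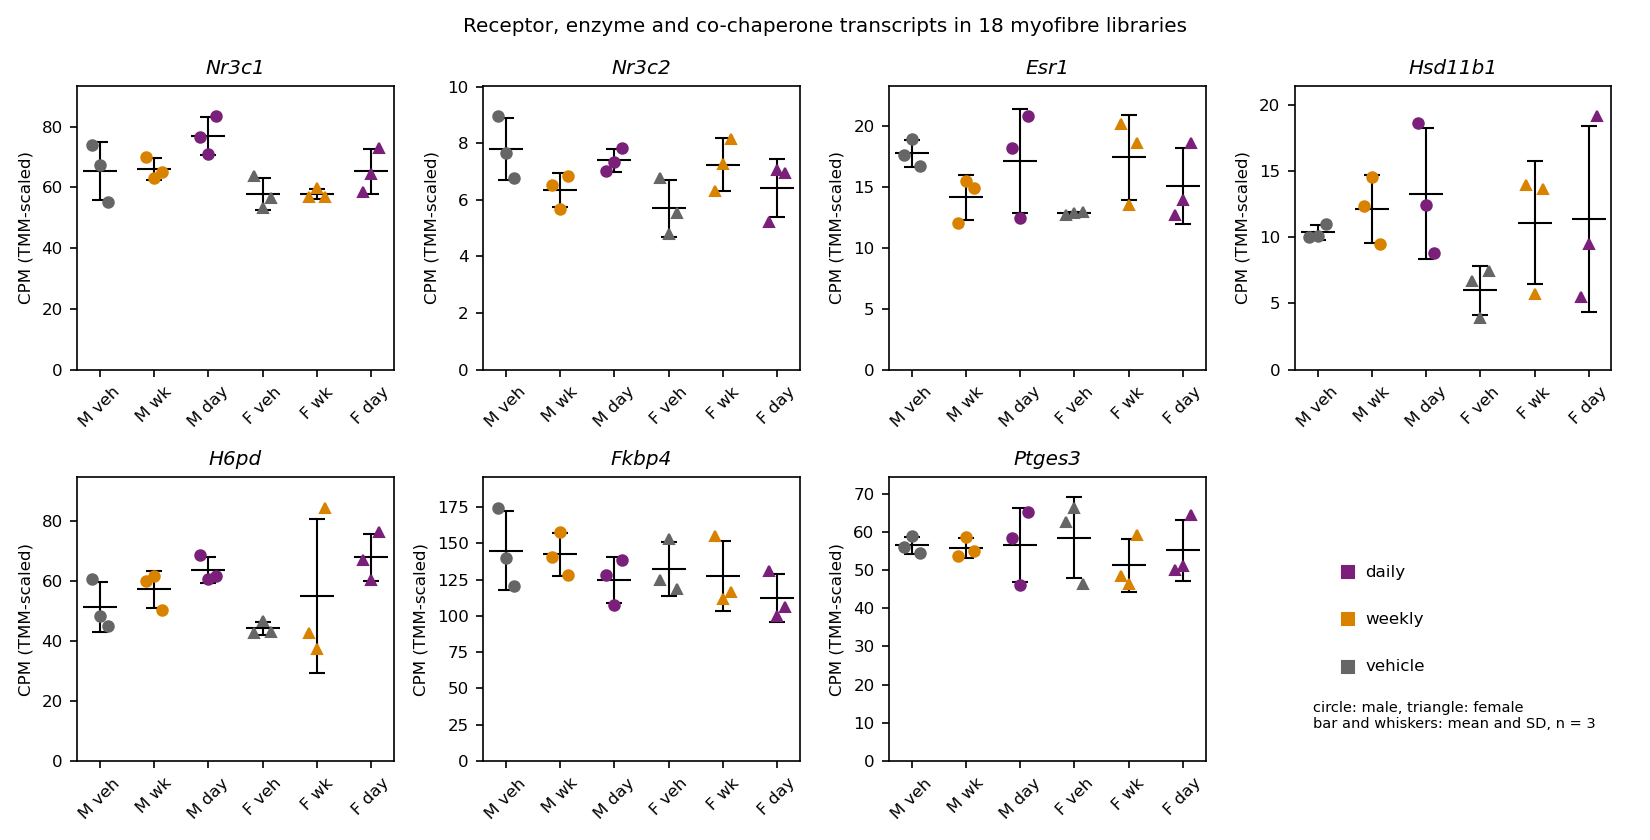
Level of each of the 7 transcripts in CPM (vertical axes, starting at 0) in the 6 groups, with 1 point per library, circles for males, triangles for females, and the mean and SD of 3 libraries as bar and whiskers. Most groups overlap. H6pd in female daily libraries (60.5 to 76.3 CPM) lies above female vehicle (42.8 to 46.7 CPM), and Esr1 in weekly libraries lies below vehicle in males and above it in females.

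The first question was whether the machinery for sensing and activating glucocorticoid changed with prednisone exposure. By edgeR's quasi-likelihood test with Benjamini-Hochberg adjustment over all 13596 tested genes, none of the 7 genes passed an adjusted p of 0.05 in any comparison. For daily prednisone against vehicle this was 0 of 7 in males, where 6.46% of all tested genes passed, and 0 of 7 in females, where 0.382% passed. Before adjustment, no gene of the 7 had p under 0.05 in males (0 of 7, against 22.8% of all genes), while Hsd11b1 and H6pd did in females (2 of 7, against 17.3%). With the responses of both sexes averaged, 0 of 7 passed beside 15% of all genes, and 3 genes, Nr3c1, Hsd11b1 and H6pd, had an unadjusted p under 0.05, where 29.2% of all genes did. DESeq2 and limma-voom also passed 0 of 7 in each sex, and for the averaged response DESeq2 passed 1 gene, H6pd, and limma-voom 0.

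Weekly prednisone gave the same count. Against vehicle, 0 of 7 passed in males, in females and with the sexes averaged, where 0% of all tested genes passed. The unadjusted counts were 0 in males, 1 in females, Esr1, and 0 for the average, with 5.71%, 7.97% and 11% of all genes. In daily against weekly prednisone, 0 of 7 passed in males and 0 of 7 in females, again with 0% of all genes, and none had an unadjusted p under 0.05 in either sex, where 13.5% and 17.7% of all genes did. DESeq2 and limma-voom passed 0 of 7 in these 5 comparisons. The daily and weekly comparisons share their vehicle libraries, so that their values are not independent of each other.

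The glucocorticoid receptor gene Nr3c1 (ENSMUSG00000024431, chromosome 18, 39410545 to 39491301 on mm10) varied by 1.56-fold over the 18 libraries. In males it reached 73.8, 67.3 and 55.2 CPM with vehicle, 70.1, 63.2 and 65.1 with weekly and 76.5, 71.0 and 83.4 with daily prednisone. In females it reached 63.7, 53.4 and 56.6 CPM with vehicle, 56.7, 59.8 and 56.9 with weekly and 58.4, 64.4 and 73.0 with daily prednisone. Only the male daily group stood wholly above its neighbour in the order of group means, the male weekly group, and every other pair of neighbours overlapped. Daily and vehicle males differed by 0.23 ± 0.13 on the log2 scale (± standard error, adjusted p = 0.282). For females the value was 0.17 ± 0.13 (adjusted p = 0.507), and averaged over both sexes it was 0.20 ± 0.09, with a 95% interval of 0.02 to 0.39 (adjusted p = 0.137). The weekly difference was 0.01 ± 0.13 in males and -0.0024 ± 0.13 in females, with 95% intervals of -0.25 to 0.28 and -0.27 to 0.26. Daily exceeded weekly males by 0.22 ± 0.13 (adjusted p = 0.482). In that comparison 2 of the 7 genes, Nr3c1 and Nr3c2, did not overlap between the groups, as was the case for 24.5% of all tested genes. In females the daily and weekly groups overlapped for all 7 genes, while 17.2% of all tested genes were separate.

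Nr3c2 (ENSMUSG00000031618, chromosome 8, 76899442 to 77245012), the mineralocorticoid receptor gene, whose product binds aldosterone and also binds glucocorticoids with high affinity, was the least abundant of the 7 transcripts. Its counts ran from 44 to 117 per library. Male libraries held 8.95, 7.65 and 6.77 CPM with vehicle, 6.51, 5.67 and 6.83 with weekly and 7.02, 7.36 and 7.83 with daily prednisone. Female libraries held 6.77, 4.78 and 5.55 CPM with vehicle, 6.30, 7.28 and 8.17 with weekly and 5.22, 7.05 and 6.95 with daily prednisone. Each treated group overlapped the vehicle group of its sex, and only the male daily libraries were wholly above the male weekly ones. The weekly difference from vehicle was -0.30 ± 0.18 for male libraries (adjusted p = 0.849) and 0.34 ± 0.18 for female libraries (adjusted p = 0.686). Gm10649, a gene on the opposite strand, shares 247 exon bases with Nr3c2, and since the strand setting of the counting is not given, reads from this stretch cannot be assigned with certainty.

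Esr1 (ENSMUSG00000019768, chromosome 10, 4611593 to 5005614) encodes oestrogen receptor alpha, through which oestradiol acts in muscle of both sexes. In males it stood at 17.6, 18.9 and 16.7 CPM with vehicle, 12.1, 15.5 and 14.8 with weekly and 18.1, 12.4 and 20.8 with daily prednisone. In females it stood at 12.7, 12.8 and 12.9 CPM with vehicle, 20.2, 13.5 and 18.6 with weekly and 12.7, 13.9 and 18.5 with daily prednisone. The weekly libraries thus lay wholly below vehicle in males and wholly above vehicle in females, and the female vehicle libraries lay wholly below the male ones. The daily libraries overlapped vehicle in both sexes. Weekly and vehicle males differed by -0.33 ± 0.20 on the log2 scale (adjusted p = 0.849), and weekly and vehicle females by 0.45 ± 0.20 (adjusted p = 0.576), so that neither passed the threshold. Esr1 was the 1 gene of the 7 whose groups were separate in each of these comparisons, beside 16.7% of all tested genes in males and 8.07% in females. The sum of the 8 macrophage markers also stood apart in weekly females, at 85.2 to 104 CPM against 36.9 to 68.9 with vehicle. Not every one of these markers was separate by itself, and 0 of 8 passed the threshold, beside 0% of all tested genes. The adipocyte sums given above stood apart as well. The part of these cells in the Esr1 values was not tested beyond the adipocyte score. With that score, the mean log2 CPM of the 10 adipocyte markers, as a covariate, the weekly difference in females was -0.020, and in males it was -0.66.

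Hsd11b1 (ENSMUSG00000016194, chromosome 1, 193221634 to 193264075), the reductase that turns prednisone into prednisolone, varied more between libraries than any other of the 7 transcripts, by 4.90-fold from the lowest to the highest. It measured 10.01, 10.1 and 11.04 CPM in male vehicle, 12.4, 14.6 and 9.48 in male weekly and 18.6, 12.4 and 8.81 in male daily libraries. It measured 6.69, 3.91 and 7.43 CPM in female vehicle, 13.9, 5.74 and 13.6 in female weekly and 5.45, 9.4996 and 19.2 in female daily libraries. Every treated group overlapped its vehicle group, and 1 library, female daily replicate 3, was the highest of all 18. Daily and vehicle females differed by 0.92 ± 0.42 on the log2 scale, a fold of 1.89 with a 95% interval of 1.01 to 3.52 (adjusted p = 0.278). Without female daily replicate 3 the difference was 0.31, and without female daily replicate 1 it was 1.24. Weekly and vehicle females differed by 0.88 ± 0.43 (adjusted p = 0.635), daily and vehicle males by 0.36 ± 0.41 (adjusted p = 0.639) and weekly and vehicle males by 0.22 ± 0.41 (adjusted p = 0.935).

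H6pd (ENSMUSG00000028980, chromosome 4, 149979475 to 150009023), which supplies NADPH to the Hsd11b1 reductase, came nearest to the threshold. Male libraries had 60.7, 48.3 and 44.9 CPM with vehicle, 59.9, 61.8 and 50.3 with weekly and 68.8, 60.6 and 61.6 with daily prednisone. Female libraries had 42.8, 46.7 and 43.2 CPM with vehicle, 42.8, 37.4 and 84.4 with weekly and 66.9, 60.5 and 76.3 with daily prednisone. All 3 female daily libraries lay above all 3 female vehicle libraries, whereas in males the lowest daily library was just under the highest vehicle library. The female weekly group was split, with 1 library at the highest level of all 18 and another at the lowest. H6pd was the 1 gene of the 7 whose daily and vehicle libraries were separate in females, where 23.1% of all tested genes were, and 0 of 7 were separate in males, where 33.4% were.

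The daily difference of H6pd from vehicle was 0.62 ± 0.23 on the log2 scale in females (adjusted p = 0.166), a fold of 1.54 with a 95% interval of 1.10 to 2.14. In males it was 0.31 ± 0.22 (adjusted p = 0.434). Averaged over both sexes it was 0.46 ± 0.16, a fold of 1.38 with an interval of 1.09 to 1.74 (adjusted p = 0.0587). The averaged difference passed with DESeq2 (adjusted p = 0.0484), in a fit of the daily and vehicle libraries alone (adjusted p = 0.00467) and without male vehicle replicate 1 (adjusted p = 0.0465), and over every alternative the adjusted p ran from 0.00467 to 0.993. The highest of these came with the adipocyte score as a covariate, where the averaged difference was -0.0061 and the female difference 0.096. Weekly and vehicle females differed by 0.31 ± 0.23 (adjusted p = 0.852), which became -0.14 without female weekly replicate 3.

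**Figure D2:**
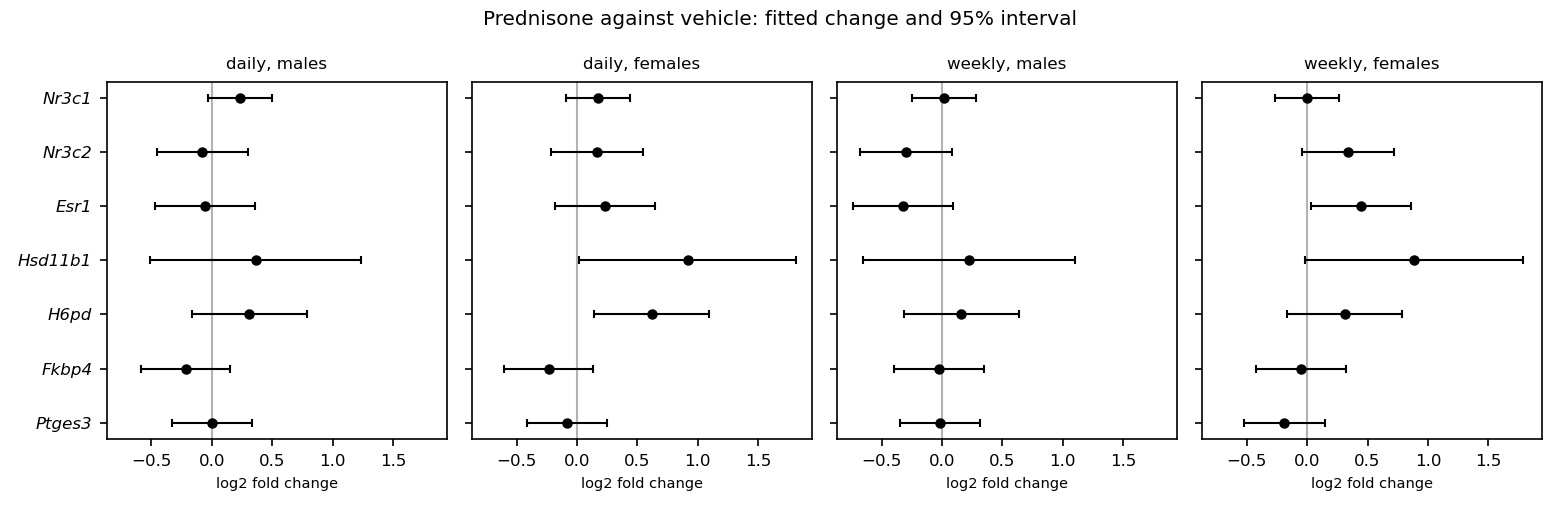
Fitted log2 fold change against vehicle (horizontal axis) of each of the 7 genes, with its 95% interval, for daily and weekly prednisone in males and in females. The intervals of H6pd (0.14 to 1.10) and Hsd11b1 (0.02 to 1.82) in daily females and of Esr1 (0.03 to 0.86) in weekly females lie above 0, and no difference shown passed the adjusted threshold.

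The levels of H6pd, Hsd11b1 and Esr1 are set beside the adipocyte markers because the marker sums differed between the groups. Of the 10 markers, 7 rose with daily prednisone averaged over both sexes, among them Adipoq by 2.99 ± 0.64 on the log2 scale (adjusted p = 0.00746) and Cidec by 3.35 ± 0.69 (adjusted p = 0.00631). Female weekly replicate 3, which had the highest adipocyte sum of the 18 libraries at 6546 CPM, also had the highest H6pd level. Female weekly replicate 2, with the lowest sum of its group at 1058 CPM, had the lowest H6pd level of all and, within its group, the lowest Esr1 and Hsd11b1 levels. Female daily replicate 3, with a sum of 3887 CPM, had the highest Hsd11b1 level. By the sums, other libraries did not follow this order. Female vehicle replicate 2 had the lowest Hsd11b1 level of all 18, 3.91 CPM, with the highest vehicle sum, 1035 CPM. By the adipocyte score this library was the lowest of its group, at 3.86 against 4.05 and 3.93. The male vehicle libraries scored lower than that, at 2.90, 3.83 and 3.41, and held 10.01, 10.1 and 11.04 CPM of Hsd11b1. Male vehicle replicate 1 had the highest vehicle H6pd level, 60.7 CPM, with the lowest sum of all, 510 CPM, and the lowest score, 2.90. Pearson's r of log2 CPM with the score was 0.610 for H6pd, 0.549 for Hsd11b1 and 0.353 for Esr1 over 18 libraries. With group means removed it was 0.652, 0.796 and 0.695. For Ptges3 it was 0.069 over the 18 libraries and 0.526 with group means removed. Nr3c1, Nr3c2 and Fkbp4 lay between 0.025 and 0.076 with group means removed. None of these correlations was tested. The mitochondrial share also differed in the libraries on which the H6pd, Hsd11b1 and Esr1 values turn. It was low in the female daily group and highest in female weekly replicate 2, and its part in the values of these genes was not tested. With the adipocyte score as a covariate, the difference of Hsd11b1 from vehicle was -0.42 in daily females, -0.43 in weekly females, -0.64 in daily males and -0.66 in weekly males. The score itself differed between treated and vehicle groups, so that in these fits treatment and adipocyte RNA cannot be fully told apart. It also holds lipid droplet and lipolysis genes such as Cidec and Lipe, a class the study reports as raised in muscle of weekly females. Whether the covariate takes out a response of the fibres themselves was not tested.

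**Figure D3:**
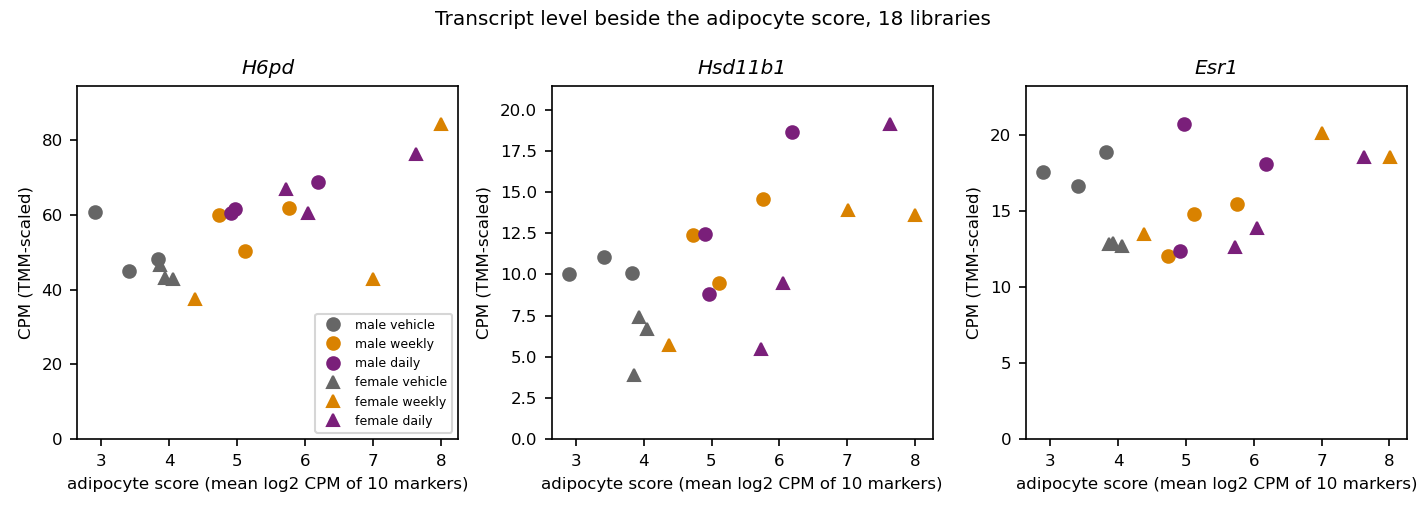
CPM of H6pd, Hsd11b1 and Esr1 (vertical axes) against the adipocyte score, the mean log2 CPM of 10 adipocyte markers (horizontal axes), in 18 libraries marked by sex and treatment. Vehicle libraries sit at the low end of the score, and the libraries with the highest H6pd (84.4 CPM) and Hsd11b1 (19.2 CPM) levels sit at the high end.

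Fkbp4 (ENSMUSG00000030357, chromosome 6, 128429735 to 128438677) encodes the immunophilin that favours hormone binding by the glucocorticoid receptor and links the complex to the dynein motor. In males it was at 174, 140 and 120 CPM with vehicle, 141, 158 and 128 with weekly and 128, 108 and 138 with daily prednisone. In females it was at 125, 153 and 119 CPM with vehicle, 155, 112 and 116 with weekly and 131, 100.2 and 106 with daily prednisone. All neighbouring groups overlapped, with daily the lowest mean in each sex. The daily difference from vehicle was -0.22 ± 0.18 for male libraries (adjusted p = 0.494), -0.24 ± 0.18 for female libraries (adjusted p = 0.522) and -0.23 ± 0.12 averaged over both (95% interval -0.49 to 0.04, adjusted p = 0.244). The weekly differences were -0.03 ± 0.18 in males and -0.05 ± 0.18 in females.

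Ptges3 (ENSMUSG00000071072, chromosome 10, 128058954 to 128077272) encodes the small co-chaperone that stabilises the HSP90 complex in the state able to bind steroid. It was the steadiest of the 7 transcripts, with a 1.44-fold range over 18 libraries. In males it was found at 55.9, 58.9 and 54.6 CPM with vehicle, 53.6, 58.7 and 55.0 with weekly and 58.5, 46.0 and 65.2 with daily prednisone. In females it was found at 62.7, 66.3 and 46.4 CPM with vehicle, 48.3, 46.3 and 59.1 with weekly and 50.1, 51.0 and 64.3 with daily prednisone. All groups overlapped their neighbours. The daily difference from vehicle was 0.00 ± 0.16 in males (95% interval -0.33 to 0.34) and -0.08 ± 0.16 in females (interval -0.42 to 0.25), and the weekly difference was -0.02 ± 0.16 in males and -0.19 ± 0.16 in females. The pseudogene Ptges3-ps took at most 8 counts in a library, against 484 to 1065 for Ptges3.

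Of the partners of these proteins, Fkbp5, the immunophilin that lowers hormone binding and is itself a target of the receptor, showed its widest gap between regimens. Its mean was 116 CPM in daily and 47.8 in weekly females, a log2 difference of 1.28 ± 0.42 (adjusted p = 0.143) with the groups separate. In males the means were 102 and 59.8 CPM, a difference of 0.78 ± 0.42 (adjusted p = 0.454), also with the groups separate. Daily and weekly groups were separate for 17.2% of all tested genes in females and 24.5% in males. Against vehicle, the daily difference averaged over both sexes was 0.42 ± 0.30 (adjusted p = 0.378) and the weekly difference -0.61 ± 0.30 (adjusted p = 0.470). Female vehicle libraries ran from 25.8 to 121 CPM and overlapped both treated female groups. Hsp90aa1, the inducible HSP90 gene, differed between daily prednisone and vehicle by 1.10 ± 0.37 averaged over both sexes (adjusted p = 0.0557). Male daily lay wholly above male vehicle libraries, where 33.4% of all tested genes were separate. Female daily libraries (47.3 to 238 CPM) overlapped female vehicle libraries (40.3 to 118 CPM). The constitutive gene Hsp90ab1 differed by -0.04 ± 0.11 (adjusted p = 0.844). None of the 3 passed the threshold in these comparisons.

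A second question was whether the sexes responded differently. For the daily response, female minus male, 0 of 7 genes passed, as did 0% of all tested genes, and 0 had an unadjusted p under 0.05, where 4.69% of all genes did. For the weekly response 0 of 7 passed, again with 0% of all genes, while 2, Esr1 and Nr3c2, had an unadjusted p under 0.05, where 2.63% of all genes did. DESeq2 and limma-voom passed 0 of 7 for either response. The weekly response of Esr1 was higher in females by 0.77 ± 0.28 on the log2 scale (95% interval 0.19 to 1.36, edgeR adjusted p = 0.999985), and it ranked 72 of 13596 genes by p. For Nr3c2 it was higher by 0.64 ± 0.25 (interval 0.10 to 1.17, edgeR adjusted p = 0.999985), at rank 125. No tested gene had a smaller adjusted p in this comparison, so these ranks mark no call. The intervals for Nr3c1 were -0.44 to 0.31 for the daily and -0.39 to 0.36 for the weekly response.

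Vehicle libraries were compared between the sexes because the sex difference in response starts from them. None of the 7 genes passed (0 of 7, with 0.765% of all tested genes), and 2, Nr3c2 and Esr1, had an unadjusted p under 0.05, where 10.4% of all genes did. DESeq2 and limma-voom passed 0 of 7 as well. Esr1 was lower in females by a log2 difference of -0.47 ± 0.20 (adjusted p = 0.406), Nr3c2 by -0.45 ± 0.18 (adjusted p = 0.386) and Hsd11b1 by -0.78 ± 0.43 (adjusted p = 0.548). Esr1 and Hsd11b1, 2 of the 7, were wholly below the male libraries, and 18.9% of all tested genes were separate between the sexes.

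**Figure D4:**
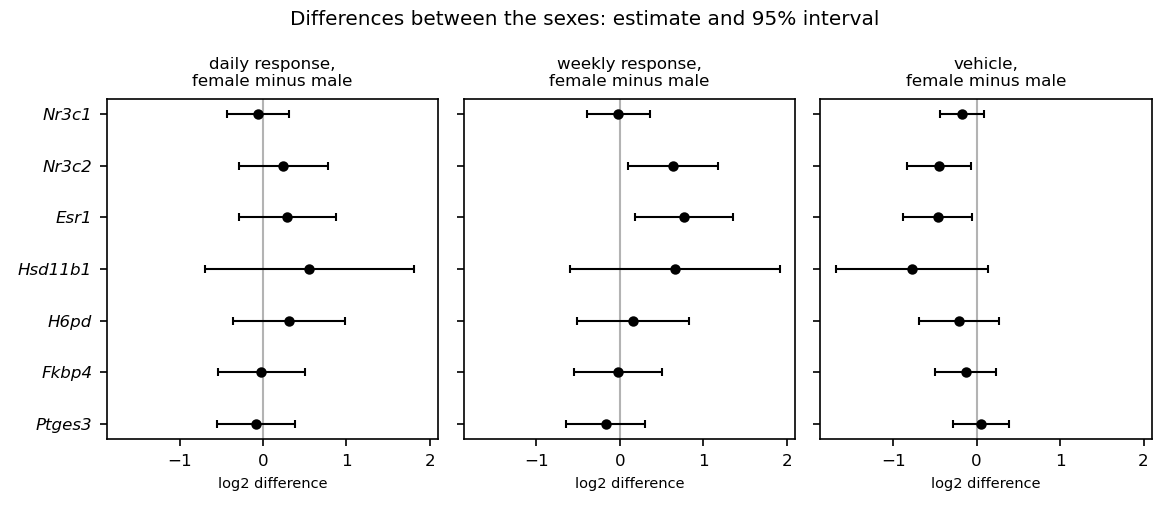
Log2 difference between the sexes (horizontal axis), female minus male, with its 95% interval, for the daily response, the weekly response and the vehicle level of each of the 7 genes. The weekly intervals of Esr1 (0.19 to 1.36) and Nr3c2 (0.10 to 1.17) lie above 0, their vehicle intervals lie below 0, and none passed the adjusted threshold. The vehicle difference enters each response difference with the opposite sign, so these intervals are not independent.

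The rest of the receptor pathway was followed with 5 lists: other steroid receptors and their partners, chaperones, coregulators, steroid metabolism and nuclear import. Daily prednisone in males raised 3 of 20 coregulators and lowered none, where 2.07% of all tested genes rose. Ncoa2, a coactivator that binds the receptor directly, went from 14.2 to 23.1 CPM (0.70 ± 0.15, adjusted p = 0.0137), and Ep300, a histone acetyltransferase recruited by nuclear receptors, from 32.2 to 51.4 CPM (0.68 ± 0.12, adjusted p = 0.00835). The third was Ncoa1, another coactivator, named after its values were seen. In the remaining lists 1 of 29 chaperones fell, 1 of 15 steroid metabolism genes, 1 of 14 nuclear import genes and none of 7 receptors and partners, where 4.38% of all genes fell, and none of these genes rose. The chaperone was Nudc, an HSP90 co-chaperone, which fell from 67.4 to 47.4 CPM (-0.51 ± 0.12, adjusted p = 0.0244), followed by Pgls, an enzyme of the pentose phosphate pathway, from 18.3 to 11.6 CPM (-0.66 ± 0.15, adjusted p = 0.0206), and the nuclear transport GTPase Ran, from 111 to 78.5 CPM (-0.50 ± 0.14, adjusted p = 0.0400). The median log2 difference was 0.21 for coregulators, -0.06 for chaperones, -0.06 for steroid metabolism, 0.17 for nuclear import and 0.46 for receptors and partners, beside 0.05 over all tested genes. Leaving out 1 of the 6 male libraries brought the coregulators called to between 1 and 2, and the chaperone and nuclear import genes called to 0.

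In females none of the genes of these lists passed with daily prednisone, where 52 of 13596 genes did, and the unadjusted counts were 5 of 20 coregulators, 2 of 29 chaperones, 4 of 15 steroid metabolism genes, 3 of 14 nuclear import genes and 1 of 7 receptors and partners, where 17.3% of all tested genes had an unadjusted p under 0.05. With weekly prednisone 0 passed in males and 0 in females, and the unadjusted counts over the 5 lists ran from 0 to 2 in males and from 1 to 3 in females, where 5.71% and 7.97% of all tested genes had such a p and 0% passed after adjustment. For the sex difference in response, female minus male, 0 genes of these lists passed with daily or weekly prednisone, beside 0% of all tested genes. The unadjusted counts over the 5 lists ran from 0 to 2 for daily and from 0 to 1 for weekly prednisone. Of all tested genes, 4.69% and 2.63% had such a p. The lists as wholes were not tested between the sexes.

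Averaged over both sexes, daily prednisone raised 5 of 20 coregulators, 3 of 15 steroid metabolism genes and 2 of 14 nuclear import genes, where 7.48% of all tested genes rose. It lowered 2 of 29 chaperones, 1 steroid metabolism gene and 1 nuclear import gene, where 7.47% fell. Nrip1, a corepressor of nuclear receptors that is prominent in fat, rose by 0.89 ± 0.26 (adjusted p = 0.0291) and Ep300 by 0.59 ± 0.09 (adjusted p = 0.000718), and the other called coregulators, named after their values were seen, were Ncoa1, Ncoa2 and the corepressor Ncor1. Hsd17b12, which acts in fatty acid elongation as well as on steroids, rose by 1.19 ± 0.38 (adjusted p = 0.0455) and G6pdx, the cytosolic counterpart of H6pd, by 0.94 ± 0.29 (adjusted p = 0.0367), the third gene that rose, named after its values were seen, was Hsd17b4, a peroxisomal enzyme, and Pgls changed by -0.52 ± 0.11 (adjusted p = 0.00479). The import receptor gene Ipo7 rose by 0.52 ± 0.12 (adjusted p = 0.00768), the dynein heavy chain gene Dync1h1 by 0.24 ± 0.08 (adjusted p = 0.0429), and Ran changed by -0.41 ± 0.10 (adjusted p = 0.0104). Nudc changed by -0.48 ± 0.09 (adjusted p = 0.00231) and Hspbp1, a nucleotide exchange factor of HSP70, by -0.42 ± 0.13 (adjusted p = 0.0387). With the adipocyte score as a covariate none of the genes of these lists passed in the averaged comparison, limma-voom called 1 steroid metabolism gene, and no filter on low counts left 1 chaperone and 2 steroid metabolism genes. With 1 library left out, between 1 and 7 chaperones (7 without female daily replicate 1) and between 1 and 4 steroid metabolism genes were called. These alternatives were chosen after the data had been seen.

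**Figure D5:**
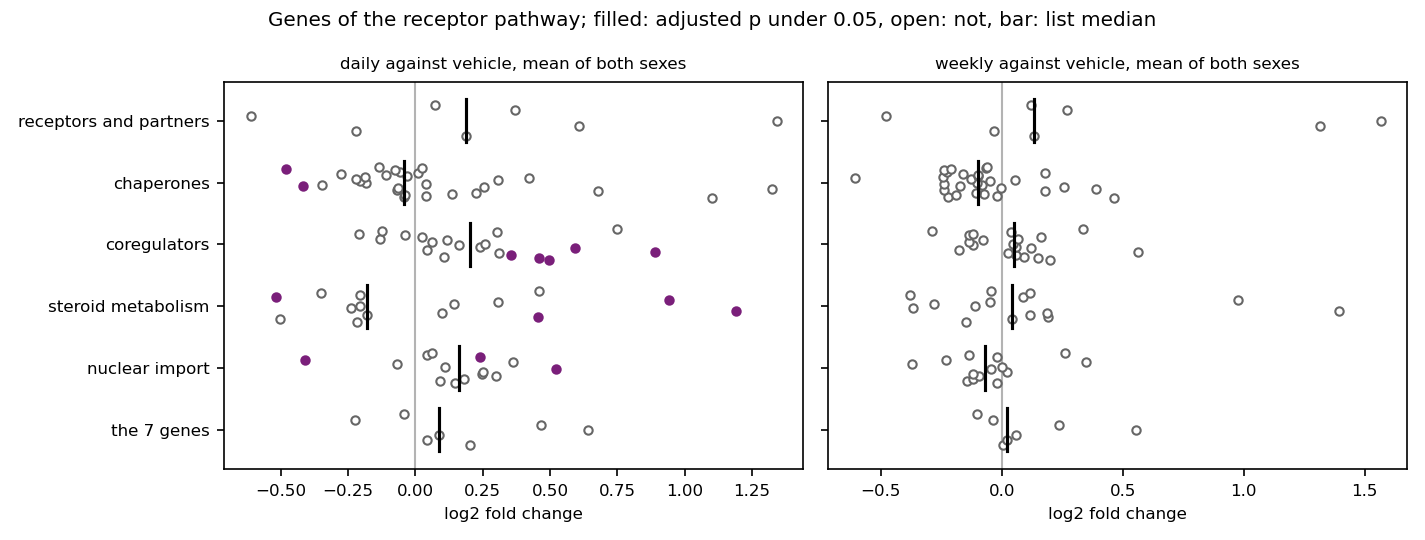
Log2 fold change against vehicle, averaged over both sexes (horizontal axes), of each tested gene of the 5 pathway lists and of the 7 genes, for daily and weekly prednisone, with 1 point per gene, filled where it passed the adjusted threshold, and a bar at the list median. With daily prednisone 14 points are filled, 5 of them coregulators, and with weekly prednisone none is.

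Some genes outside the lists followed the pattern of a member closely over the 18 libraries, which share their groups and depth. Measured by Pearson's r of log2 CPM, given as a description with no test, the closest to Nr3c1 were Eif3a, Acvr2a and Exoc5, all at 0.87. Nr3c2 was followed by Rbm12b2 (0.80), Emsy (0.80) and Iqcb1 (0.78), and Esr1 by Cyb5b (0.82), Gnpnat1 (0.81) and Dnajb14 (0.81). The closest to Hsd11b1 were Stambp (0.88), Nrip1 (0.82) and Abcd2 (0.81), and to H6pd Ipo9 (0.89), Ncoa4 (0.81) and Galm (0.80). Fkbp4 had the tightest company, with Cgrrf1 (0.95), Nutf2 (0.94) and Ank1 (0.92), and Ptges3 was followed by Naa30 (0.83), Zranb1 (0.73) and Samd8 (0.72).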

How the data were processed

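RNA-seq libraries from 18 mice were analysed, 3 for each of 2 sexes and 3 treatments as the labels give them. The deposited table holds unnormalized counts of reads, 1 column per library. The authors aligned reads to mm10 and counted them per gene; the submitters' processing notes name TopHat2 2.1.0, Bowtie2 2.2.6 and HTSeq, with mm10 and mm9. The strand setting and annotation release are not given in the sources used here, so overlapping genes are uncertain. Symbols were matched for 42462 of 43430 identifiers. Unmapped sample columns numbered 0.

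Counts were fitted in R 4.3.3 with edgeR 4.0.16: filterByExpr (minimum count 10), TMM scaling, robust quasi-likelihood fit of 6 group means over 18 libraries (total counts 10506661 to 14686654), two-sided tests, Benjamini-Hochberg adjustment over 13596 genes, threshold 0.05. Standard errors were derived from the F statistic. The filter kept all 7 members. The steps were tested on simulated data.

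The members and the gene lists were chosen with earlier results of these data known. Named genes are the members, the partners Fkbp5, Hsp90aa1 and Hsp90ab1, up to 2 called genes in each direction, by size of change, for each list and contrast, and for each member the 3 genes with the highest r, unnamed gene models passed over. Exceptions are marked. A further gene that the rule names is not reported here. Alternatives were DESeq2 1.42.0, its size factors, limma-voom (limma 3.58.1), no filter, a stricter filter (1 CPM in 9 libraries), a replicate block, the adipocyte score (prior count 2) as a covariate, the compared groups alone, and each library left out in turn. Further markers were those of endothelial cells, fibroblasts, Schwann cells and blood; no marker of these lists was at 0. Endothelial sums were 434 to 1186 CPM and fibroblast sums 1002 to 3590 CPM over the libraries.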

Additional observations from a re-analysis of the deposited data

Results flagged for a closer look

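Esr1 drew attention because its weekly and vehicle libraries were separate in both sexes and in opposite directions. The weekly difference from vehicle was -0.33 on the log2 scale in males and 0.45 in females, and the difference between these responses was 0.77 ± 0.28 (edgeR adjusted p = 0.999985). The difference kept its sign in every alternative fit, from 0.64 with the adipocyte score as a covariate to 0.90 without female weekly replicate 2, with adjusted p between 0.676 and 1. Since Esr1 was picked for its separation in both sexes, leaving out a library could hardly turn the sign, which therefore adds no support. Male and female vehicle libraries, which enter this difference, were themselves separate. Female weekly libraries also held the highest macrophage sums, 85.2 to 104 CPM, and 2 of the 3 highest adipocyte sums, whose part beyond the covariate fit was not tested.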

How the results depend on the processing

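Of 58 member differences, DESeq2 kept 56 at the same sign and side of the threshold, limma-voom 56, the filters 57 each, the size factors 57, the replicate block 56, the compared groups alone 54 and the adipocyte covariate 43. None became a call apart from H6pd in the averaged daily response. Members called there went from 0 to 1 with DESeq2, with the compared groups alone and without male vehicle replicate 1 (0 to 1 over libraries left out). In daily males the counts moved as follows. With the compared groups alone, 5 chaperones, 5 coregulators, 3 steroid metabolism and 2 nuclear import genes were called. DESeq2 called 1 receptor or partner, 2 steroid metabolism and 3 nuclear import genes, and limma-voom and the replicate block 2 steroid metabolism genes each. The adipocyte covariate left 0 chaperones, 1 coregulator and 0 nuclear import genes, and no filter left 0 chaperones and 0 nuclear import genes. With 1 library left out, chaperones and nuclear import came to 0, coregulators to 1 to 2, steroid metabolism to 0 to 1. The adipocyte covariate turned the sign of 15 differences. For Esr1 these were the averaged daily (-0.32), female daily (-0.23) and female weekly (-0.020) differences, for H6pd the averaged daily (-0.0061), male daily (-0.11), female weekly (-0.27) and male weekly (-0.23) differences and the sex difference of the weekly response (-0.042). For Hsd11b1 they were the averaged daily (-0.53), female daily (-0.42), male daily (-0.64), female weekly (-0.43) and male weekly (-0.66) differences, and for Ptges3 male daily (-0.21) and female against male vehicle (-0.010). The remaining reversals were of values near 0. Nr3c1 in weekly females was 0.0045 with the compared groups alone, 0.0022 with limma-voom, 0.0080 with no filter, 0.0043 with the stricter filter and 0.00032 with the replicate block. Ptges3 in daily males was -0.0041 with the compared groups alone, -0.012 with DESeq2, -0.011 with its size factors, -0.0088 with limma-voom and -0.0031 with the replicate block, and in weekly males 0.0037 with the compared groups alone. The cause was not tested. Leaving out 1 library turned 48 values, over these ranges: Esr1 averaged daily -0.0014 to 0.18 and male daily -0.18 to 0.13; Fkbp4 daily sex difference -0.19 to 0.083, weekly sex difference -0.19 to 0.078, vehicle sexes -0.24 to 0.026, female weekly -0.22 to 0.050 and male weekly -0.14 to 0.13. H6pd ranged from -0.30 to 0.34 for the weekly sex difference and from -0.14 to 0.50 for female weekly, and Hsd11b1 from -0.050 to 0.88 for the daily sex difference, the lowest in each case without replicate 3 of the treated female group. Nr3c1 ranged from -0.17 to 0.033 for the daily and -0.13 to 0.074 for the weekly sex difference, -0.078 to 0.062 for female weekly and -0.090 to 0.11 for male weekly. Nr3c2 ranged from -0.0026 to 0.13 for averaged daily and -0.15 to 0.053 for male daily. Ptges3 ranged from -0.23 to 0.0011 for the daily sex difference, -0.10 to 0.023 for averaged daily, -0.22 to 0.012 for female daily, -0.080 to 0.13 for male daily, -0.036 to 0.19 for vehicle sexes and -0.057 to 0.013 for male weekly. Same-numbered libraries did not deviate together as a whole (45 pairs, correlation -0.503 to 0.501, median -0.060, 17 over 0.1), so the numbers were not read as pairing. These numbers are those of the sample titles, and the codes of the libraries carry other numbers. Pairs with different numbers were not compared, so other batches shared by libraries were not tested. With the replicate block the averaged H6pd difference was 0.46 (adjusted p = 0.0712). Counts were lowest for Hsd11b1, at 36 to 317, and Nr3c2, at 44 to 117.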
